A study of Mus musculus with 12 samples.

Results

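The BCL2 family genes were followed across leukaemia cells and thymocytes of mice with and without MBD2. The 10 genes chosen were Bcl2, Bcl2l1 and Mcl1, whose proteins protect cells from death, and Bcl2l11, Pmaip1, Bbc3, Bid, Bad, Bax and Bak1, whose proteins promote it. Their members were all probe sets that the array annotation assigns to one of these genes and to no other gene. This gave 29 probe sets of 9 genes, out of 45101 probe sets on the array and out of 18193 genes with a single-gene probe set. Bax had no single-gene probe set in the annotation used and is not analysed here. All 29 passed the filter on low values that left 28372 probe sets to test.

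The 12 mouse arrays formed 4 groups of 3. The first 2 groups were GFP+ cells sorted from the bone marrow of mice transplanted with Notch1-driven T-cell acute lymphoblastic leukaemia, either MBD2-/- (KO leukaemia) or MBD2+/+ (WT leukaemia). They were taken once more than 50% of the white blood cells in blood were GFP+. The other 2 were CD4+CD8+ double positive thymocytes sorted from mice at steady state, likewise MBD2-/- (KO thymocytes) or MBD2+/+ (WT thymocytes). The labels state no strain, age or sex, and the thymocyte groups carry no Notch1 leukaemia and no transplant, so tumour against thymocyte comparisons also differ in tissue, host and sort. Nothing in the labels says that the 3 samples of a group came from separate animals, and p-values then measure only the spread between these samples, which may be technical.

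BCL2 proteins decide whether the outer membrane of the mitochondrion is opened, the step that releases cytochrome c and starts the caspases. BCL2, BCL-XL (the product of Bcl2l1) and MCL1 hold the pore-forming proteins BAX and BAK1 in check, and the BH3-only proteins BIM (Bcl2l11), NOXA (Pmaip1), PUMA (Bbc3), BID and BAD bind the protective proteins or, for some, activate the pore formers directly. In the thymus, double positive cells are known to rely on BCL-XL and MCL1 with little BCL2, and BIM removes self-reactive cells. MBD2 is a protein that binds methylated CG dinucleotides and recruits a repressor complex. DNA methylation was not measured here.

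Because MBD2 reads CG dinucleotides, the windows around the annotated starts of the members are shown with every CG in capitals. They come from RefSeq on build GRCm38.p6 and run from 250 bases before to 50 bases after a start, 5′ to 3′ on the gene's own strand. Bcl2 and Bid are shown because they differed between KO and WT leukaemia in opposite directions, and Bcl2l1 because it was lower in both leukaemias than in thymocytes and has starts with few and with many CGs.
Bcl2, chr1:106714241-106714540, minus strand: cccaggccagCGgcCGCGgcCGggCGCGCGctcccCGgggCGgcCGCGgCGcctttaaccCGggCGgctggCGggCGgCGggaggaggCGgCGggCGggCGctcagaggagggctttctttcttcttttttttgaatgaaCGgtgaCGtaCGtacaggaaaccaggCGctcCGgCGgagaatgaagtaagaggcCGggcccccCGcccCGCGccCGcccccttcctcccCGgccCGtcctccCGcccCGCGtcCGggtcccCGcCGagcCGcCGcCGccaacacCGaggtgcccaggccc
Bid, chr6:120916775-120917074, minus strand: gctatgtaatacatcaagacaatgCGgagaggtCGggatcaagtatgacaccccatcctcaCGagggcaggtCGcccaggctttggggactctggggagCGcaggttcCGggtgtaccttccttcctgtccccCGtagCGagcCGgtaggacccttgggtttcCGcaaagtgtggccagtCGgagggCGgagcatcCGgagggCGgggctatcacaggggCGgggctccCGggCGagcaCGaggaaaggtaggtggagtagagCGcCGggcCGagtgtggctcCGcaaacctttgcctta
Bcl2l1, chr2:152831679-152831978, minus strand: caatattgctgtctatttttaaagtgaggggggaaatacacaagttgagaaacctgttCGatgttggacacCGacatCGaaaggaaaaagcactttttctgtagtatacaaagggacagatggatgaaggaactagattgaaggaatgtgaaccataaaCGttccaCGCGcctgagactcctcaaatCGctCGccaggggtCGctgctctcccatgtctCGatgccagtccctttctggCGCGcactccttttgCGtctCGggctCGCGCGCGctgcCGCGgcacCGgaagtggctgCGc
Bcl2l1, chr2:152828440-152828739, minus strand: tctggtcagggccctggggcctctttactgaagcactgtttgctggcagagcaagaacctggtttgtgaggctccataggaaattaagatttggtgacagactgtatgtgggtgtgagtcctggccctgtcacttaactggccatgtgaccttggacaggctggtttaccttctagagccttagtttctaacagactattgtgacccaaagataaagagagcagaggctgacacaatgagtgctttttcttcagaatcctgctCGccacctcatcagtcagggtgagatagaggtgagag

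The Bcl2 window held 44 CGs, a number reached by 2.25% of the 32851 windows of this length in the same table. The Bid window held 22, as did the CG-richest Bcl2l1 window, which 23.1% of all windows reached. The CG-poorest Bcl2l1 window held 1 CG, and 94.6% of all windows held at least 1. Of the 15 member windows, which cover 9 member genes including Bax, 14 held more than the median of 7 over all windows. The CG is the same on both strands, so 1 count covers both. Windows for Bcl2l11 held 27 and 38 CGs, those for Bbc3 34, 30 and 39, that for Mcl1 33, those for Bad 27 and 21, and that for Bak1 11. No window is shown for Pmaip1. These counts describe sequence only, and no protein binding was measured.

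The arrays were alike in scale, with median intensities from 36.5 to 39.3, and the arrays of a group correlated at 0.97 to 0.991 over the 28372 probe sets tested. Control probes made to bind no mouse transcript read up to 35.3 on the 7 arrays without signal from spiked-in poly-A control RNA, described below. That level was not measured on the 5 arrays with such signal. Values under it are treated as background on all 12 arrays. Mbd2 itself read 54.4 ± 12.4 in KO leukaemia against 820 ± 119 in WT leukaemia, and 72.1 ± 10.7 in KO thymocytes against 1136 ± 206 in WT thymocytes (SD, n = 3 each). The labels do not say whether its probe set lies in the deleted stretch. Xist read 36.5 ± 4.36 in KO leukaemia against 4193 ± 543 in WT leukaemia, and Eif2s3y, a Y-linked gene, 519 ± 51.5 against 7.31 ± 0.29, so sex-linked transcripts divide the leukaemia groups and genotype cannot be told apart from what they mark. In thymocytes Xist read 39.7 ± 3.14 in KO and 35.4 ± 9.07 in WT cells, and Eif2s3y 262 ± 111 in KO and 395 ± 167 in WT cells. The comparison of WT leukaemia with WT thymocytes (Xist 6.36, Eif2s3y -4.04 on the log2 scale) and the interaction (-6.45 and 5.05) differ in these transcripts too, and there also what they mark cannot be told apart from the comparison. T-cell markers were read in all groups, with summed levels of 21127 to 24857 in KO leukaemia, 24796 to 30752 in WT leukaemia and 40561 to 50613 in thymocytes. Double positive thymocyte markers summed to 4162 to 5996 in KO leukaemia, where 3 of 9 (Rag1, Rag2 and Ptcra) were below background, and to 11638 to 12901 in WT leukaemia, where Rag2 was below. In KO leukaemia 5 of 10 mast cell markers, Cpa3 among them, were above background, while Mcpt4, Tpsb2, Cma1, Fcer1a and Ms4a2 stayed below. In each of the other groups 8 of 10 were below, the same 5 with Cpa3, Mcpt8 and Kit. The list summed to 8309 to 9796 in KO leukaemia against 197 to 236 in WT leukaemia. Neutrophil markers summed to 267 to 918 in KO leukaemia and 1142 to 2033 in WT leukaemia. The part of these other transcripts in the results was not tested. A bulk array cannot tell apart fewer cells of a type and less RNA per cell.

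The arrays also fell into 2 technical sets. The poly-A spike controls gave signal on 5 arrays (KO leukaemia 1, WT leukaemia 1 and 2, WT thymocytes 1 and 2) and none on the other 7. The 3′ to 5′ signal ratio of Gapdh was 0.964 to 1.14 on arrays with that signal and 1.12 to 3.68 on those without. Inside a group, several member probe sets differed between arrays without and with the poly-A signal, 1 array against 2 each time. Such a difference cannot be told apart from the spread between replicates. Over all 28372 probe sets it had an SD of 0.32 in KO leukaemia, 0.35 in WT leukaemia and 0.43 in WT thymocytes. The Bid probe set 1448560_at was lower on arrays without the signal by a log2 difference of -1.59 in KO leukaemia, -1.69 in WT leukaemia and -1.09 in WT thymocytes. The Bad probe set 1416583_at differed by -0.79 in KO leukaemia and -1.01 in WT leukaemia, and the Mcl1 probe set 1416881_at by -0.92 in WT leukaemia and -0.98 in WT thymocytes. In WT thymocytes alone, the differences were -1.02 for Bcl2l1 1420888_at, 1.30 for Bcl2 1440770_at and 1.35 for Bcl2l11 1456005_a_at.

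**Figure D1:**
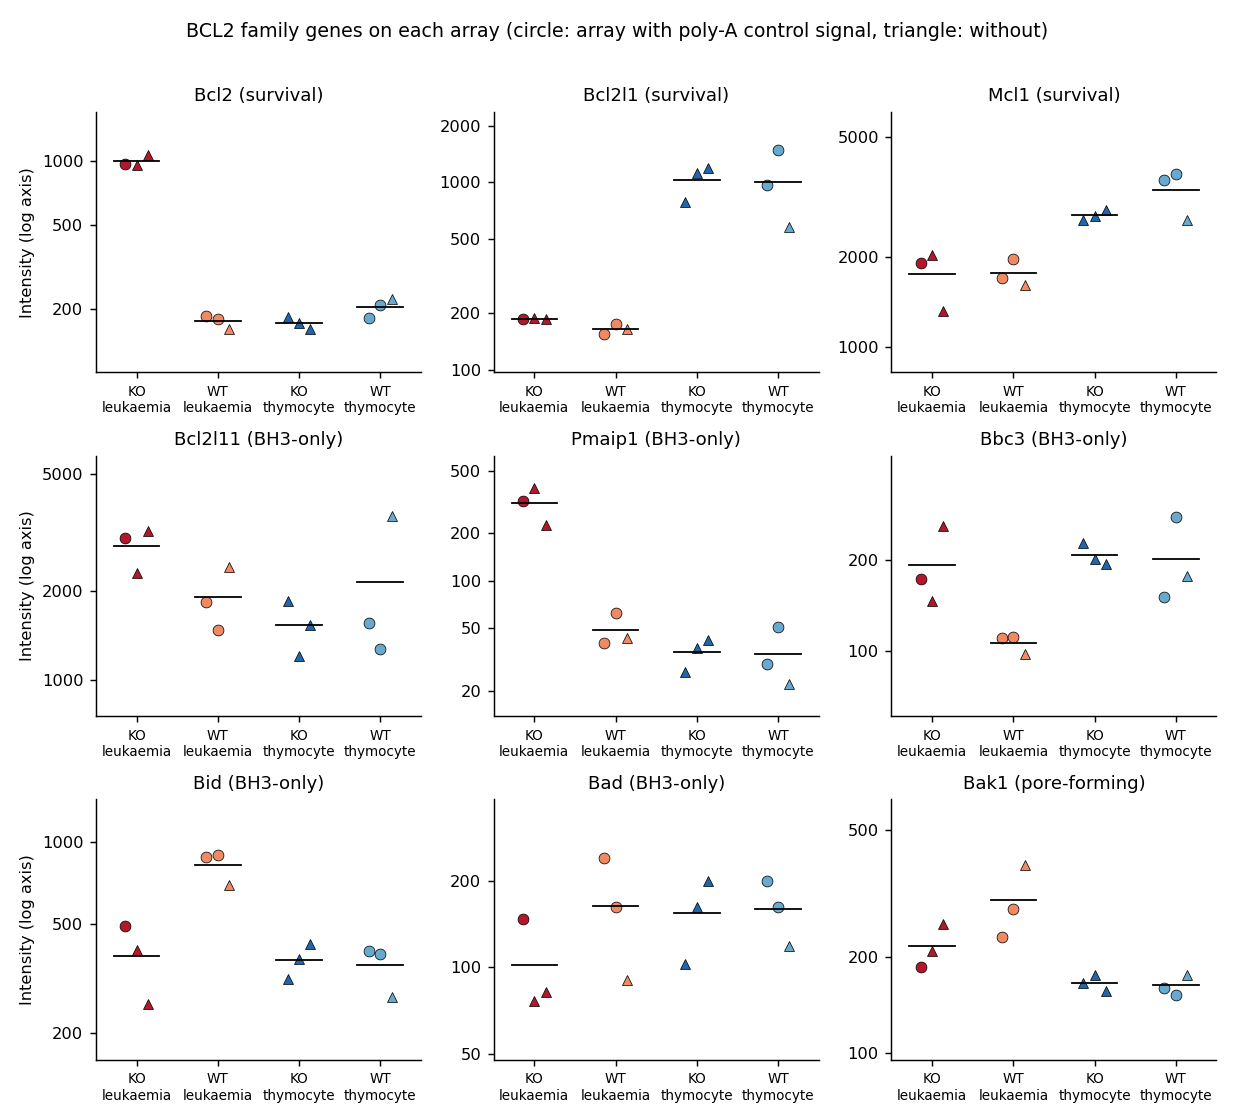
Intensity on each of the 12 arrays (log axis) for the probe set of each gene with the highest mean, with KO leukaemia, WT leukaemia, KO thymocytes and WT thymocytes from left to right and the group mean as a bar. Bcl2 lies at 958 to 1064 in KO leukaemia and at or below 223 on every other array, and Bcl2l1 lies at or below 189 in both leukaemias and at or above 579 in thymocytes.

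KO and WT leukaemia were compared first, which asks how the family differs in the tumour when MBD2 is deleted. Bcl2 was higher in KO leukaemia, and so was the BH3-only gene Pmaip1, while Bid was lower. The other protective genes did not pass. Of the 29 probe sets, 6 were higher and 1 was lower at an adjusted p under 0.05 in limma with Benjamini-Hochberg adjustment, against 12.9% of all probe sets called in either direction, 7.64% higher and 5.26% lower. 5 of the 6 higher probe sets belong to Bcl2, so the count is largely that of 1 gene. The arrays of the groups did not overlap at 14 of 29 probe sets, against 31.2% of all. Over the whole array 3660 probe sets were called, 2337 without WT replicate 1 and 1863 without WT replicate 2, and the Bcl2 and Pmaip1 probe sets passed in all 6 fits that left out 1 array.

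Bcl2, which encodes the founding protective protein, gave intensities of 966, 958 and 1064 in KO leukaemia and 187, 179 and 162 in WT leukaemia at its brightest probe set (1457687_at). The groups did not overlap, and the arrays within each were close together. The log2 difference was 2.40 (SE 0.10, limma adjusted p = 3.78e-05), a 5.28-fold difference on the log2(value + 16) scale. The 4 other Bcl2 probe sets differed by 2.45, 2.24, 2.19 and 1.41, all past the threshold, with no overlap between groups at any of them. At the dimmest in the tumours, 1437122_at, the values were 162, 192 and 159 in KO leukaemia and 26.5, 25.6 and 22.6 in WT leukaemia, so the WT level there was within background and the fold depends on it. The same holds for 1440770_at, which averaged 31.0 in WT leukaemia. On arrays with the poly-A signal the 1457687_at difference was 2.30 (limma adjusted p = 1.74e-05) and on those without it 2.53 (adjusted p = 0.0815), in fits that leave 1 array in a group. The second of these called no probe set of the array.

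Bcl2l1 and Mcl1, the protective genes that thymocytes are known to use, showed no such difference. Bcl2l1 (1420888_at) read 187, 189 and 187 in KO leukaemia and 155, 175 and 166 in WT leukaemia. The groups did not overlap by a narrow margin, and the log2 difference of 0.17 (95% confidence interval -0.05 to 0.39, limma adjusted p = 0.322) did not pass. Mcl1 (1448503_at) read 1910, 2021 and 1324 in KO leukaemia and 1702, 1964 and 1617 in WT leukaemia, with a log2 difference of -0.03 (95% confidence interval -0.46 to 0.41, adjusted p = 0.952). Its 5 other probe sets lay between -0.26 and 0.13, and none passed.

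Among the BH3-only genes, Pmaip1, whose product NOXA binds MCL1, gave 320, 389 and 225 in KO leukaemia against 40.2, 62.2 and 43.2 in WT leukaemia. The groups were far apart, and the WT arrays lay just above background. The log2 difference was 2.33 (SE 0.22, limma adjusted p = 0.00101), a 5.02-fold difference. It was 2.34 on arrays with the poly-A signal and 2.40 on those without.

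Bid, which caspase-8 cleaves to link death receptors to mitochondria, went the other way. Its brightest probe set (1417045_at) read 493, 404 and 255 in KO leukaemia and 885, 898 and 696 in WT leukaemia. The groups did not overlap, but the KO arrays spread widely. The log2 difference was -1.11 (SE 0.24, limma adjusted p = 0.0287). This probe set was lower on arrays without the poly-A signal, by -0.59 inside KO leukaemia, -0.35 inside WT leukaemia and -0.52 inside WT thymocytes. KO minus WT leukaemia was -0.83 on arrays with the signal and -1.08 on those without, in fits that leave 1 array in a group. Leaving out single arrays gave adjusted p between 0.0226 and 0.118, and 3 of 6 such fits lost the call, those without KO replicate 2, WT replicate 1 or WT replicate 2. The second Bid probe set, 1448560_at, read 166, 61.0 and 31.7 in KO leukaemia and 386, 258 and 87.0 in WT leukaemia, overlapping groups in which the low arrays are those without the poly-A signal. Its difference of -1.36 (limma adjusted p = 0.239) did not pass, nor did that of 1447873_x_at (-0.36, adjusted p = 0.248).

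No Bcl2l11 probe set passed, and neither did that of Bbc3. Bcl2l11 (1456005_a_at) read 3039, 2303 and 3215 in KO leukaemia and 1832, 1478 and 2425 in WT leukaemia, overlapping groups with a log2 difference of 0.59 (limma adjusted p = 0.136). Its probe sets did not agree in direction. Those named 1435448_at and 1456006_at differed by 0.71 (adjusted p = 0.0628) and 0.57 (0.0582), with no overlap between groups, and 1435449_at by 0.18 (0.546), whereas 1426334_a_at differed by -0.75 (0.0745), reading 61.9, 27.6 and 38.3 in KO leukaemia and 85.3, 68.7 and 86.7 in WT leukaemia. Bbc3, the gene of PUMA, read 174, 147 and 260 in KO leukaemia against 111, 111 and 97.9 in WT leukaemia. No KO array overlapped the WT arrays, and the log2 difference of 0.74 had an adjusted p of 0.0581.

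Bad and the pore-forming gene Bak1 had negative differences that did not pass. Bad (1416583_at) read 148, 76.4 and 81.9 in KO leukaemia and 240, 162 and 90.1 in WT leukaemia, with a log2 difference of -0.57 (adjusted p = 0.39). Bak1 (1418991_at) read 186, 209 and 254 in KO leukaemia and 231, 283 and 389 in WT leukaemia, with a difference of -0.43 (adjusted p = 0.249). The groups overlapped at both of these probe sets. They did not overlap at the second probe set of either gene. Bad 1416582_a_at read 125, 117 and 108 in KO leukaemia and 180, 151 and 132 in WT leukaemia (-0.35, adjusted p = 0.144). Bak1 1425716_s_at read 27.4, 18.4 and 23.4 in KO leukaemia and 32.0, 31.5 and 33.1 in WT leukaemia, all under the background level (-0.31, adjusted p = 0.141).

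Samples with the same number in KO and WT leukaemia deviated together (correlations of 0.42, 0.22 and 0.59), and a fit with the number as a block was run. It called 6026 probe sets, 21.2% of those tested, with 10 member probe sets higher and 4 lower. With the block, Bcl2l11 passed as higher at 1456005_a_at (adjusted p = 0.016), 1435448_at (0.0059) and 1456006_at (0.0478) and as lower at 1426334_a_at (0.0173). Bbc3 passed as higher (0.0407), and Bak1 (0.0396) and the second Bid probe set (0.0037) as lower. The numbers 1 and 3 also share their poly-A set.

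**Figure D2:**
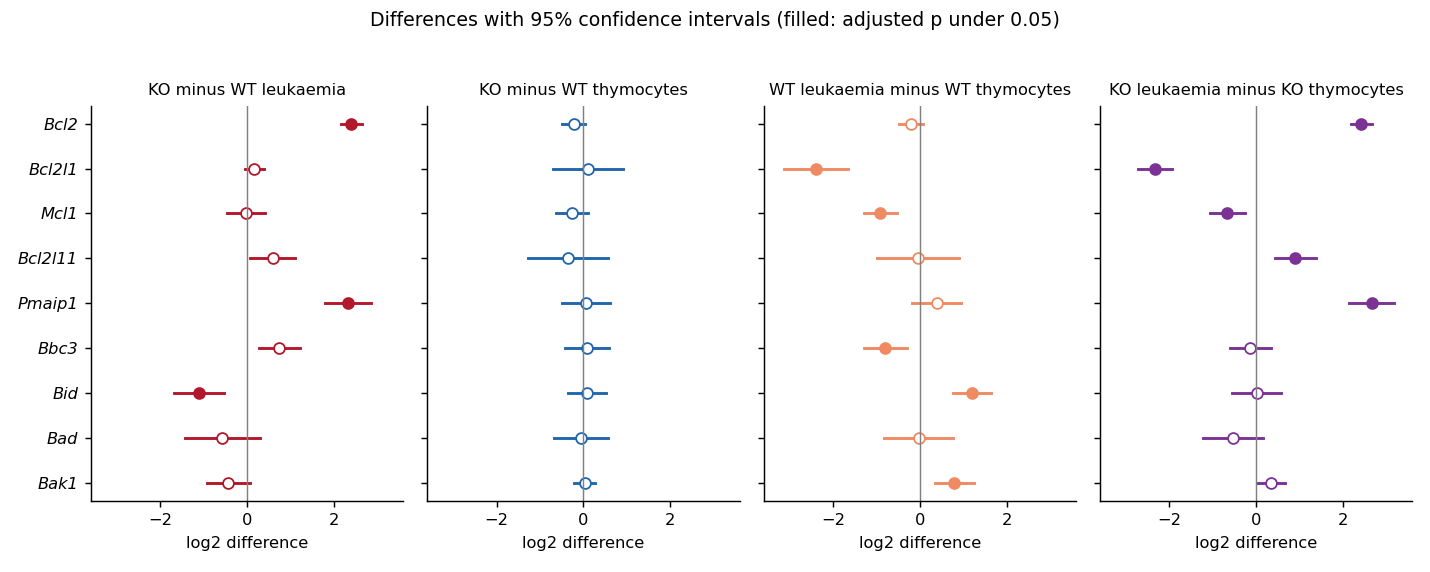
Log2 differences with 95% confidence intervals for 1 probe set per gene in the 4 comparisons, filled where the adjusted p is under 0.05. Bcl2 differs by 2.40 and 2.42 in the panels with KO leukaemia on top, Bcl2l1 by -2.39 and -2.34 in the panels of leukaemia against thymocytes, and no gene is filled for KO minus WT thymocytes.

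Outside the 10 genes, the other BCL2 family genes had 2 higher, 1 lower and 7 not passing of 10 tested, with a median log2 difference of -0.11 against -0.05 over all probe sets tested. Bcl2l2, a protective relative of Bcl2, was higher in KO leukaemia by 1.70 (adjusted p = 0.00351), Bcl2l14 was higher by 1.10 (0.0225), and Bnip3, a BH3-like mitochondrial protein gene, was lower with -0.63 (0.0385). Of 17 genes of the apoptosome, caspases and their inhibitors, 1 was higher and 3 were lower. The higher gene was Xiap (0.68), a caspase inhibitor, and the lower ones were Birc5 (-0.84), which encodes survivin, Endog (-1.59) and Aifm1 (-0.64), which encode mitochondrial proteins that act on DNA after release. Of 23 genes known to regulate the members, 6 were higher, none was lower and 17 did not pass. They include Stat5a (1.33) and Stat3 (1.19), which act below cytokine receptors, Foxo3 (1.71), which is known to drive Bcl2l11, and Nr4a3 (1.11). Caspase-3, caspase-7 and p53 had no probe set named in the annotation used.

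KO and WT thymocytes were compared to ask how the family differs by genotype outside the tumour. Every KO thymocyte array lacks the poly-A signal, whereas WT thymocytes 1 and 2 have it. Genotype and poly-A set can therefore largely not be told apart here, and the same arrays enter the interaction. No member differed in a way that passed. limma called 0 of 29 probe sets, and 3 had an unadjusted p under 0.05, while 0.0106% of all probe sets were called and 4.41% had an unadjusted p under 0.05. The arrays of the groups did not overlap at 3 of 29 probe sets, against 8.42% of all. The 3 probe sets called on the whole array were those of Mbd2 (-3.70), Fgf13 (-1.73) and Myh10 (1.66), the last 2 named after their values were seen.

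Bcl2 (1457687_at) read 184, 172 and 162 in KO thymocytes and 181, 209 and 223 in WT thymocytes. The groups overlapped, with a log2 difference of -0.22 (95% confidence interval -0.49 to 0.05). Pmaip1 read 26.3, 37.5 and 41.9 in KO thymocytes and 29.5, 51.0 and 22.1 in WT thymocytes, at or near background in both, with a difference of 0.06. Bid read 316, 375 and 423 in KO thymocytes and 401, 390 and 271 in WT thymocytes, with a difference of 0.08.

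Bcl2l1 and Bcl2l11 had wide intervals here, and WT thymocyte replicate 3 stood apart from the other WT arrays at both. Like every KO thymocyte array it lacks the poly-A signal, so leaving it out divides the genotypes by poly-A set. Bcl2l1 read 780, 1115 and 1187 in KO thymocytes and 960, 1476 and 579 in WT thymocytes, a difference of 0.11 (95% confidence interval -0.70 to 0.91) that became -0.23 without that replicate. Bcl2l11 (1456005_a_at) read 1854, 1202 and 1530 in KO thymocytes and 1556, 1267 and 3611 in WT thymocytes, a difference of -0.35 that became 0.10 without it. All 5 Bcl2l11 probe sets had a lower mean in KO thymocytes, from -0.27 to -0.40, and 2 of them, 1456006_at and 1426334_a_at, had an unadjusted p under 0.05. The third probe set with such a p was Mcl1 1416881_at (-0.84), one of those that differed between arrays without and with the poly-A signal inside a group. None of the 10, 17 and 23 genes tested of the 3 other lists passed, and 1 of them had an unadjusted p under 0.05.

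Whether the genotype difference was itself larger in the tumour was tested as an interaction over all 12 arrays. It passed for 8 of 29 probe sets, 7 higher and 1 lower, against 9.63% of all probe sets, 6.26% higher and 3.38% lower. All 5 Bcl2 probe sets were among them, with 2.62 at 1457687_at (limma adjusted p = 6.98e-07) and between 1.66 and 2.40 at the others. Pmaip1 differed by 2.27 (adjusted p = 0.00139). The difference for Bid was -1.19 (adjusted p = 0.0423). It passed in 2 of 12 fits that left out 1 array, those without KO leukaemia replicate 1 or WT leukaemia replicate 3, with adjusted p between 0.0195 and 0.105 over the 12. The eighth was Bcl2l11 1456006_at with 0.97 (adjusted p = 0.0182), which read 557, 387 and 428 in KO leukaemia against 276, 302 and 322 in WT leukaemia, and 139, 164 and 205 in KO thymocytes against 206, 226 and 248 in WT thymocytes. At this probe set the genotypes are ordered in opposite ways in tumour and thymus, with no overlap in either, in thymocytes only by 205 against 206. Of all probe sets, 31.2% did not overlap in leukaemia and 8.42% in thymocytes. Neither difference passed by itself, with 0.57 (limma adjusted p = 0.0582) in leukaemia and -0.40 (adjusted p = 0.983) in thymocytes. Among the other lists, 3 of 10 other BCL2 family genes were higher and 0 lower, 1 of 17 apoptosome and caspase genes was higher and 2 were lower, and 7 of 23 regulators were higher and 0 lower. The lower genes were Endog (-1.76, adjusted p = 0.0114) and Birc5 (-1.24, adjusted p = 0.00819). Xiap (0.76, adjusted p = 0.0465) was the higher one of that list. Among the regulators, Stat5a (1.91, limma adjusted p = 1.33e-05), Stat3 (1.38, 0.00143), Nr4a3 (1.39, 0.00177) and Il7r (2.69, 0.00383) had the smallest p. Il7r encodes the receptor of a cytokine known to raise Bcl2 in lymphocytes. It averaged 166 ± 78.6 in KO leukaemia and 20.8 ± 3.07 in WT leukaemia, the latter below background. Bcl2l2 (1.87, 0.000758), Bcl2l14 (1.16, 0.0212) and Bmf (1.38, 0.036), a BH3-only gene, were the higher genes of the other BCL2 family list.

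WT leukaemia was set against WT thymocytes, and KO leukaemia against KO thymocytes, to describe how the family differs between the tumour and a normal T-cell stage. The comparison of WT leukaemia with WT thymocytes shares its WT leukaemia arrays with the genotype comparison in leukaemia, and that of KO leukaemia shares the KO arrays, so their values are not independent. In the WT pair, 4 of 29 probe sets were higher and 10 lower in leukaemia, against 29.7% of all probe sets called, 16.2% higher and 13.6% lower. Lower members numbered 5 without WT leukaemia replicate 1 and also without replicate 2, and higher ones 2 without WT leukaemia replicate 2, WT thymocyte replicate 1 or WT thymocyte replicate 2. In the KO pair, 8 were higher and 7 lower, against 27.3% of all, 15.6% higher and 11.6% lower. The arrays did not overlap at 18 of 29 probe sets in the WT pair, against 44.1% of all, and at 20 of 29 in the KO pair, against 41.5%.

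Bcl2l1 was lower in leukaemia of both genotypes. It read 155, 175 and 166 in WT leukaemia against 960, 1476 and 579 in WT thymocytes, and 187, 189 and 187 in KO leukaemia against 780, 1115 and 1187 in KO thymocytes. No leukaemia array came near any thymocyte array. The log2 difference was -2.39 (SE 0.31, limma adjusted p = 0.00179) in the WT pair and -2.34 (SE 0.17, adjusted p = 0.000121) in the KO pair. A second probe set, 1420887_a_at, was lower by -0.81 and -0.69, with leukaemia values of 16.5 to 23.0 that lay below background. The remaining Bcl2l1 probe sets, 1426191_a_at and 1426050_at, were below background in every group mean.

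Mcl1 was also lower in leukaemia. It read 1702, 1964 and 1617 in WT leukaemia against 3599, 3777 and 2651 in WT thymocytes, and 1910, 2021 and 1324 in KO leukaemia against 2648, 2729 and 2868 in KO thymocytes. The groups did not overlap in either pair. The log2 difference was -0.91 (limma adjusted p = 0.00672) in the WT pair and -0.67 (adjusted p = 0.0265) in the KO pair. Of its 6 probe sets, 4 were lower in the WT pair and 5 in the KO pair, and all 6 had negative differences in both. At 1437527_x_at and 1456243_x_at the WT call was lost without WT leukaemia replicate 1 or 2 or WT thymocyte replicate 1 (adjusted p up to 0.0808 and 0.0727). In the KO pair the 1448503_at call was lost without any one of the KO thymocyte arrays (up to 0.0832), that of 1416880_at without KO thymocyte replicate 2 or 3 (up to 0.0704), and that of 1456381_x_at in 4 of 6 such fits, without replicate 1 or 2 of either group (up to 0.0768).

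Bcl2 gave different answers by genotype and by probe set. In the KO pair it was higher in leukaemia at 1457687_at (2.42, limma adjusted p = 1.48e-05), 1437122_at (1.83) and 1422938_at (1.08). In the WT pair 1457687_at did not pass (-0.20, adjusted p = 0.259), reading 187, 179 and 162 in WT leukaemia against 181, 209 and 223 in WT thymocytes. The probe set 1443837_x_at was lower in WT leukaemia (-1.91, adjusted p = 0.000765), with 45.4, 55.5 and 52.5 in WT leukaemia against 252, 171 and 300 in WT thymocytes, and in the KO pair it read 236, 308 and 374 in KO leukaemia against 215, 228 and 189 in KO thymocytes (0.49, adjusted p = 0.0828). The probe set 1440770_at likewise differed by -1.60 (adjusted p = 0.0181) in the WT pair and by 0.58 (adjusted p = 0.0833) in the KO pair, and its WT call was lost without WT leukaemia replicate 1 or 2 (up to 0.0724). The WT call of 1422938_at (-0.58, adjusted p = 0.0489) was lost whichever array was left out (0.0536 to 0.134). Across the 12 arrays, 1457687_at correlated with 1437122_at at 0.96 and with 1422938_at at 0.89, but with 1440770_at at 0.60 and with 1443837_x_at at 0.53, 12 arrays that share groups and poly-A sets. All 5 agreed that WT leukaemia had the lower level of the 2 tumours, and they did not agree on where thymocytes lie between them.

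The death-promoting genes differed by genotype as well. Pmaip1 was higher in KO leukaemia than in KO thymocytes (2.66, SE 0.21, limma adjusted p = 0.000205), 320, 389 and 225 against 26.3, 37.5 and 41.9, and in the WT pair 40.2, 62.2 and 43.2 in WT leukaemia against 29.5, 51.0 and 22.1 in WT thymocytes did not pass (0.39, adjusted p = 0.279). Bid was higher in WT leukaemia than in WT thymocytes, 885, 898 and 696 against 401, 390 and 271, with 1.20 (adjusted p = 0.00353), and the KO pair differed by 0.01. Bak1 was higher in WT leukaemia, 231, 283 and 389 against 160, 153 and 176 in WT thymocytes (0.80, adjusted p = 0.019), a call lost without WT leukaemia replicate 2 or WT thymocyte replicate 1 or 2 (up to 0.0608). In the KO pair it read 186, 209 and 254 in KO leukaemia against 166, 176 and 157 in KO thymocytes, without overlap, at 0.34 (adjusted p = 0.107).

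Bcl2l11 was higher in KO leukaemia than in KO thymocytes at 4 of 5 probe sets, by 0.90 at 1456005_a_at (limma adjusted p = 0.0144) and by up to 1.35 at 1456006_at. In the WT pair 2 of 5 were higher, 1426334_a_at (0.85) and 1456006_at (0.38), and 1456005_a_at differed by -0.04. The WT call of 1456006_at held in 1 of 6 fits that left out 1 array, that without WT thymocyte replicate 3 (adjusted p 0.0354 to 0.138 over the 6). The KO call of 1435449_at (0.62) held only without KO leukaemia replicate 3 (0.00713 to 0.0853). Bbc3 was lower in WT leukaemia, 111, 111 and 97.9 against 152, 277 and 178 in WT thymocytes (-0.79, adjusted p = 0.0298), and differed by -0.13 in the KO pair. Its WT call was lost without any one of the WT leukaemia arrays (up to 0.0848). Neither probe set of Bad passed in either pair, and 1425716_s_at of Bak1 did not pass in either.

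The numbers of WT leukaemia and WT thymocyte samples paired by the same rule, with correlations of 0.42, 0.45 and 0.59, and each number shares its poly-A set. With the block 11720 probe sets, 41.3%, were called, with 7 member probe sets higher and 14 lower. The calls gained were Bcl2 1437122_at (adjusted p = 0.0194), Bcl2l1 1426191_a_at (0.0297), Mcl1 1456381_x_at (0.00218) and 1416881_at (0.000605) as lower, and Pmaip1 (0.0411), Bid 1448560_at (0.00264) and Bid 1447873_x_at (0.0277) as higher.

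**Figure D3:**
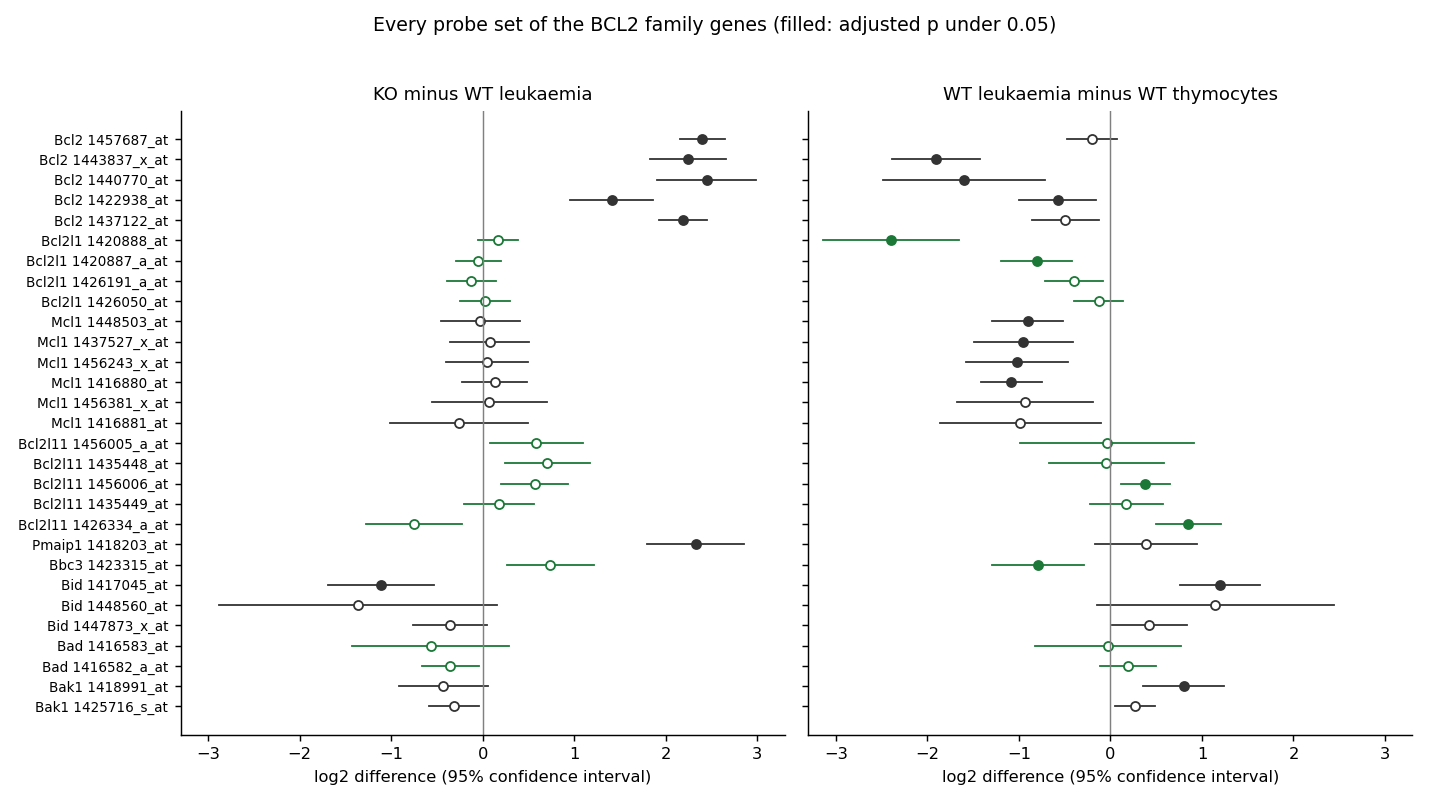
Log2 difference with its 95% confidence interval for all 29 probe sets, KO minus WT leukaemia on the left and WT leukaemia minus WT thymocytes on the right, filled where the adjusted p is under 0.05. All 5 Bcl2 probe sets lie between 1.41 and 2.45 on the left, while on the right they spread from -1.91 to -0.20.

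In the lists around the family, the WT pair had 1 higher and 3 lower of 10 other BCL2 family genes, with Bcl2l14 at 0.92 and Bcl2l2 and Bmf both at -1.09. Of the 17 apoptosome and caspase genes, 6 were higher and 5 lower, among them Endog (2.95) and Vdac3 (0.87) as higher and the inhibitor of apoptosis genes Birc2 (-1.34) and Birc3 (-0.93) as lower. Of the 23 regulators, 4 were higher, among them E2f1 (1.15) and Bag1 (1.00), and 9 were lower, among them Nr4a3 (-1.25) and Myb (-0.94). In the KO pair the counts were 2 higher and 0 lower, 5 higher and 2 lower, and 7 higher and 2 lower for the 3 lists. Casp8 (1.29), the caspase that cleaves BID, Bcl2l14 (2.07), Stat5a (1.32) and Myc (2.87) were among the genes that passed as higher.

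The order of group means differed from gene to gene. Bcl2 at 1457687_at averaged 996 ± 59.0 in KO leukaemia, ahead of 176 ± 12.9 in WT leukaemia, 172 ± 11.4 in KO thymocytes and 204 ± 21.2 in WT thymocytes (SD, n = 3 each), which overlapped. Bcl2l1 averaged 187 ± 1.27 in KO leukaemia and 166 ± 9.92 in WT leukaemia, below 1027 ± 217 in KO thymocytes and 1005 ± 450 in WT thymocytes. Pmaip1 averaged 312 ± 82.3 in KO leukaemia, ahead of 48.6 ± 11.9 in WT leukaemia, 35.2 ± 8.02 in KO thymocytes and 34.2 ± 15.0 in WT thymocytes, which overlapped. Bid averaged 384 ± 120 in KO leukaemia, below 826 ± 113 in WT leukaemia and overlapping 371 ± 53.8 in KO thymocytes and 354 ± 72.5 in WT thymocytes.

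The balance of the family was described per array as the mean log2 value of the 3 protective genes minus that of the 6 death-promoting genes, each relative to its WT thymocyte mean. It is a description of transcripts with equal weight per gene, without a test. It was -0.93, -0.69 and -0.88 in KO leukaemia, -1.47, -1.36 and -1.43 in WT leukaemia, -0.12, -0.04 and -0.13 in KO thymocytes and 0.04, 0.22 and -0.26 in WT thymocytes. Both tumours lay below both thymocyte groups on every array, and KO leukaemia lay above WT leukaemia. The protective mean was -0.32 in KO leukaemia and -1.17 in WT leukaemia, and the death-promoting mean was 0.51 in KO leukaemia and 0.25 in WT leukaemia.

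Leaving out single genes moved these differences. KO minus WT leukaemia was 0.59 for the balance and -0.19 when Bcl2 was left out, so its direction rests on Bcl2, and 1.00 when Pmaip1 was left out. KO leukaemia minus KO thymocytes was -0.73, and it was 0.34 without Bcl2l1, -2.04 without Bcl2 and -0.31 without Pmaip1. WT leukaemia minus WT thymocytes was -1.42, and kept its direction at -0.81 without Bcl2l1, the only gene left out there. KO minus WT thymocytes was -0.10, within the spread of the WT arrays.

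**Figure D4:**
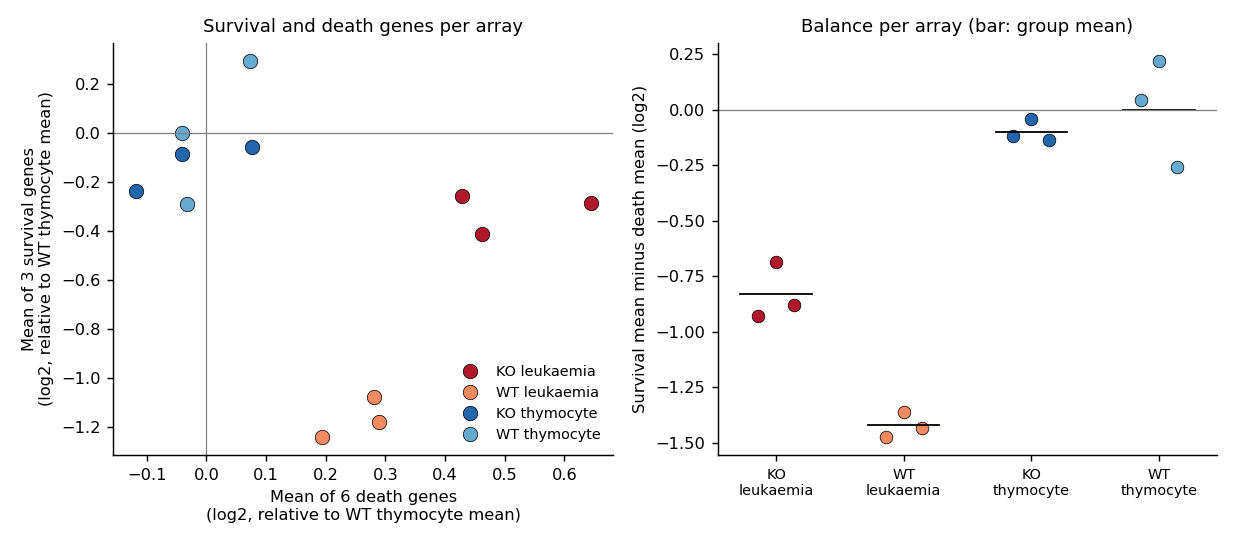
Left, mean log2 level of the 3 protective genes against that of the 6 death-promoting genes on each array, relative to the WT thymocyte mean, and right, their difference per array with the group mean as a bar. KO leukaemia lies at -0.93 to -0.69 and WT leukaemia at -1.47 to -1.36, below the thymocyte arrays at -0.26 to 0.22.

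The genes with the most similar profile were looked for among 14198 genes over the 12 arrays, for the 3 members whose group means varied most. For Bcl2l1 they were Tdrd5, Mturn and Als2cl, each with a correlation of 0.99. For Pmaip1 they were Itga2b and Tnfsf10, both at 0.99, and Lratd1 at 0.98. For Bcl2 they were Ctla2b, Cd93 and Fam167a at 0.99. Lratd1 was under background in every group mean, with 26.2 in KO leukaemia as its highest. Ctla2b and Fam167a were under background in all groups but KO leukaemia, and Cd93 in WT leukaemia and KO thymocytes. Tdrd5 and Mturn were under it in both leukaemias. Tnfsf10, the gene of the death ligand TRAIL, averaged 666 in KO leukaemia, 83.3 in WT leukaemia, 73.3 in KO thymocytes and 73.4 in WT thymocytes. The arrays share groups and poly-A sets, so these correlations describe mainly the order of 4 group means.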

How the data were processed

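Per the labels' protocols, biotin cRNA was made from 7 µg of total RNA per sample and hybridised to mouse Affymetrix arrays. The table the authors deposited holds 1 intensity per probe set and array, unlogged, ranging between 3.07 and 21620. Its summarisation, background correction and normalisation are not stated, and no scans were used. The number of arrays and the background level limit the precision.

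A single gene was named for 34945 of 45101 probe sets and several genes for 932, none of which hold a member. Tested were the 28372 single-gene probe sets that exceeded an array's percentile 25 on 3 or more of 12 arrays. limma 3.58.1 (R 4.3.3) was run with lmFit and eBayes on log2(value + 16), 1 fit per comparison and 1 over all arrays for the interaction. Benjamini-Hochberg adjustment ran over all tested probe sets, and the threshold was an adjusted p under 0.05. A fold is taken on that scale and understates low genes. With 3 arrays against 3, an exact test cannot go below 0.1. Where 1 probe set stands for a gene, it is the one with the highest mean. Probe sets ending in _x_at or _s_at can hold probes that match other transcripts.

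The members and lists were chosen with earlier results of these data known. All members are named. Of each other list, the genes named are among the 4 passing genes per comparison with the smallest p. For KO leukaemia against KO thymocytes, only some of those genes are named. For the 3 members whose group means vary most, the 3 most correlated genes are given. The fits were tested on simulated data with 28372 probe sets. Its noise was normal and independent between arrays, without poly-A sets or shared sample numbers, and few probe sets were changed. The shares recovered need not hold for the real comparisons. Of 100 changed by a log2 difference of 1, 54 were recovered for KO against WT leukaemia and 56 for thymocytes. Of 100 changed by 2, 92 and 91 were recovered. Both fits also called 6 unchanged probe sets. The sample number served as a block beside the main fit only where all 3 same-number pairs correlated above 0.1, as the correlations given with those comparisons show. Alternatives covered scaling, the added constant, the filter, limma's settings, probe set choice, the block, the poly-A sets and leaving out each array. Plots were drawn in Python 3.11.15 using matplotlib 3.10.9. Sequences are RefSeq's for GRCm38.p6.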

Additional observations from a re-analysis of the deposited data

Results flagged for a closer look

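The genotype difference in leukaemia differed from that in thymocytes at 8 of 29 member probe sets by the interaction term (limma, all 12 arrays). Over all probe sets tested, 9.63% passed, 6.26% higher and 3.38% lower. Bcl2 differed at all its probe sets, by 2.62 (1457687_at), 2.40 (1443837_x_at), 2.18 (1440770_at), 1.66 (1422938_at) and 2.32 (1437122_at) on the log2 scale. Pmaip1 differed by 2.27 and Bcl2l11 1456006_at by 0.97. Bid 1417045_at differed by -1.19, a call that held in 2 of 12 fits that left out 1 array.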

How the results depend on the processing

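Of 803 alternatives computed for called member probe sets, 719 kept the call, 84 lost it and 0 reversed. Of 543 for those not called, 488 stayed as they were, 11 passed and 44 changed sign. The cause of the changes was not tested, except that 1 probe set per gene leaves fewer to count. Fits within a poly-A set leave 1 array in a group, which is assumed to vary like the others.

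For KO against WT leukaemia, the replicate block gave 6026 calls with 10 member probe sets higher and 4 lower. Lower members numbered 2 with quantile normalization, centring on the 75th percentile, trended robust eBayes, all 12 arrays or arrays with the poly-A signal, and 0 without the filter. With 1 probe set per gene 3 members were higher. Arrays without the poly-A signal gave 0 calls and 0 members either way. Leaving out single replicates gave 1863 (without WT replicate 2) to 3368 calls and 0 to 2 lower members. Higher calls made up 59.2% of all calls, and 46.8% with centring on the 75th percentile, which shifted the median of all probe sets to -0.12. Mcl1, at -0.03, became 0.046 with quantile normalization, 0.040 with the poly-A block, 0.063 and 0.017 within the poly-A sets, and ranged from -0.14 to 0.16 over replicates left out.

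For thymocytes, calls numbered 5 with trended robust eBayes, 5 with 1 probe set per gene, 14 with all 12 arrays, 0 with the replicate block (same-number correlations of -0.51, 0.096 and -0.48), 0 with the poly-A block and 0 to 2 over replicates left out. With the poly-A block Mcl1 was 0.051, Bad 0.30 and Bak1 -0.074, and Bad was 0.0032 with centring on the 75th percentile. The same block gave 0.79 for Bcl2l1 and -1.25 for Bcl2l11, without a change of sign. Over replicates left out the ranges were -0.23 to 0.43 for Bcl2l1, -0.65 to 0.099 for Bcl2l11, -0.12 to 0.29 for Pmaip1, -0.089 to 0.31 for Bbc3, -0.097 to 0.18 for Bid, -0.25 to 0.18 for Bad and -0.014 to 0.078 for Bak1.

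For WT leukaemia against WT thymocytes, 1 probe set per gene gave 5228 calls with 2 members higher and 3 lower, and the replicate block 7 members higher. Replicates left out gave 2 to 4 higher and 5 (without WT leukaemia replicate 1) to 12 lower. Centring on the 75th percentile shifted the median to 0.12. Bad was 0.046 with quantile normalization, 0.053 with centring on the 75th percentile and 0.13 on arrays with the poly-A signal, and ranged from -0.33 to 0.31 over replicates left out. Bcl2l11 was 0.041 with centring on the 75th percentile and 0.23 on arrays with the signal, and ranged from -0.34 to 0.41.

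For KO leukaemia against KO thymocytes, 1 probe set per gene gave 4539 calls with 3 members higher and 2 lower, and the replicate block 4 lower (same-number correlations of -0.39, 0.11 and -0.46). Bid was -0.054 with quantile normalization, -0.045 with centring on the 75th percentile, and -0.19 both with the poly-A block and on arrays without the signal. It ranged from -0.19 to 0.26, and Bbc3 from -0.35 to 0.031, over replicates left out.

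For the interaction, lower members numbered 0 without the filter or with an added constant of 64, 2 with the poly-A block and 0 to 1 over replicates left out, and 2 were higher with 1 probe set per gene. Higher calls made up 64.9% of all calls, and 49.6% with centring on the 75th percentile (median -0.17). Bcl2l1 was -0.059 with quantile normalization, -0.075 with centring on the 75th percentile, -0.053 with the poly-A block, and -0.26 to 0.40 over replicates left out.

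The balance for KO minus WT leukaemia was 0.46 over all probe sets of each gene. Chosen after seeing the data, leaving out Bcl2 made it -0.19 and leaving out Pmaip1 1.00. For KO leukaemia minus KO thymocytes it was -2.04 without Bcl2, 0.34 without Bcl2l1 and -0.31 without Pmaip1, and for the WT pair -0.81 without Bcl2l1. For thymocytes it ranged from -0.23 to 0.0095 over replicates left out.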
